A study of Mus musculus with 10 samples.

Results

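The 48 genes described here encode long mRNAs that were reported to be bound by FMRP, the RNA-binding protein made from Fmr1. They were taken from a list of gene names, and each was read through the brightest probe set whose platform annotation names that gene alone. Of the 48, 46 were measured, among 17712 genes tested in all. Tnrc6b is annotated only together with another gene, Ncor1 has no probe set listed under its name, and both were left out. The study placed RNA from FACS-sorted mouse cortical astrocytes, gated on an EGFP reporter at 8 weeks of age, on 10 whole-transcript Affymetrix arrays. Of these, 5 are labelled FMR1-KO, with the genotype FMR1_KO, and 5 are labelled Control, with the genotype wild-type. All carry the EGFP reporter, and the labels name neither the promoter that drives it, nor the Fmr1 allele, the strain, or whether a sample is 1 mouse or a pool. The p-values therefore measure the spread between these samples, which may be partly technical.

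FMRP binds mRNAs along their coding region and slows the ribosomes that translate them, mostly on large messages for synaptic, cytoskeletal and chromatin proteins. Its loss causes fragile X syndrome. The catalogue of bound mRNAs comes from mouse brain and is dominated by neuronal messages, but many of these genes, such as spectrins, ankyrins and the giant ubiquitin ligases, are also used by astrocytes and microglia. FMRP is best known as a regulator of translation, whereas the arrays read mRNA level.

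Fmr1 itself read 8.32, 8.38, 8.26, 8.15 and 8.01 on the arrays labelled FMR1-KO 1 to 5, against 8.28, 7.60, 8.03, 8.17 and 8.10 on Control arrays 1 to 5, all as log2 signal levels. The groups overlapped and the signal was not lower under the FMR1-KO label (difference 0.19 ± 0.13, SE; limma adjusted p = 0.704). The disrupted stretch of Fmr1 is not stated, so this checks the labels only if the probes read that stretch, and the label is quoted throughout. Astrocyte markers were read well above the cutoff for dim probe sets, the 25th percentile of all probe sets at a log2 level of 5.32 (mean of 18 genes 9.92 to 10.89 on arrays labelled FMR1-KO and 9.76 to 10.43 on Control arrays), but so were 19 measured microglia markers (9.31 to 10.73 on arrays labelled FMR1-KO and 10.03 to 11.04 on Control arrays), so the material did not read as astrocytes alone. Neuron markers were dim: 13 of 16 were tested and averaged 5.92 to 6.02 on arrays labelled FMR1-KO and 5.94 to 6.12 on Control arrays. The other 3 lay below that cutoff or had no probe set naming them alone. Xist RNA is made from the inactive X of female cells. Control arrays 2 and 3 held 10.60 and 10.98 of it in log2 level, and the other 8 arrays 4.98 to 5.23, so sex as read from Xist was not balanced between the groups. In bulk material, fewer cells of a type and less RNA per cell cannot be told apart.

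The genomic sequence before the start sites gives a first view of what kind of genes these are. Of the 46 measured members, 40 have a start in the RefSeq table for GRCm38.p6, at 59 starts in all. In the 250 bases before those starts the GC box GGGCGG, read on both strands, was found in 59.3% of member windows and 32.7% of all 32851 windows, and the median GC content was 64.4% against 52.4%. The CCAAT box was found in 22% of member windows against 33.8% of all windows. The NRF1 motif was in 10.2% against 3.74%, the E-box CACGTG in 1.69% against 6.02% and the AP-1 motif TGANTCA in 1.69% against 6.75%. All 5 motifs searched are given, each counted on both strands whether or not it overlapped another. These matches are descriptions of letters and not binding sites. The windows were not limited to genes tested here, and a gene with several starts was counted at each (27 of the 40 members have 1 start). Members were not compared with tested genes alone. The windows of 3 members are shown with every GC box in capitals, because each leads a pattern in the values that follow. Zfhx2 has the smallest p of the group comparison, Map2 the most negative and Zfhx3 the most positive slope on the microglial gene Cx3cr1.
Zfhx2 (chr14:55092049-55092298, minus strand): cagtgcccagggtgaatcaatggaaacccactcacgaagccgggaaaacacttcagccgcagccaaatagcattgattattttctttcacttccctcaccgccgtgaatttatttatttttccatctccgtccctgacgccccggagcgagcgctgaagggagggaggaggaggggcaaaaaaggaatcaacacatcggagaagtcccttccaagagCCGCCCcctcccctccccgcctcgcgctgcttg
Map2 (chr1:66175079-66175328, plus strand): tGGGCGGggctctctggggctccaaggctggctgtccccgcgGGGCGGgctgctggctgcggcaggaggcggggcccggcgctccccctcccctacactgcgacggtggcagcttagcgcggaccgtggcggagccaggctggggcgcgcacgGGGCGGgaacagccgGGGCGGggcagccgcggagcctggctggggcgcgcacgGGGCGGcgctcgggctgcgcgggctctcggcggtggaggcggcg
Zfhx3 (chr8:108714394-108714643, plus strand): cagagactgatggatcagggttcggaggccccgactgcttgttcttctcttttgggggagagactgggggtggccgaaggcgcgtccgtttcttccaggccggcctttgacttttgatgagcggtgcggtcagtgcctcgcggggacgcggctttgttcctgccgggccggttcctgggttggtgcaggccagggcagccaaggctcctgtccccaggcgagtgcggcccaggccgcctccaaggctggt
The Map2 window holds 5 GC boxes at 81.2% GC, the Zfhx2 window 1 at 55.6% and the Zfhx3 window 0 at 66%. All 3 listed starts lie inside the annotated span of their gene, chr14:55060268-55092381 for Zfhx2, chr1:66175202-66442583 for Map2 and chr8:108279311-108961636 for Zfhx3, so none is the outermost start.

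Most of the long FMRP-bound mRNAs had a higher mean on the arrays labelled FMR1-KO, and none passed the adjusted threshold. The mean was higher for 36 of the 46 and lower for 10, where 46.8% of all genes had a higher one. The median difference was 0.15 on the log2 scale, against -0.01 over all genes. At an unadjusted p under 0.05 in limma, 14 members were higher and 0 lower, while 4.0% of all genes were higher and 3.53% lower at that p. After Benjamini-Hochberg adjustment over all genes, 0% of genes and 0 members passed 0.05, and each of the 14 had an adjusted p of 0.654. Earlier results of these data had already shown this list's direction, so it is not independent evidence of it.

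The mean log2 level over the 46 members was 8.35, 8.30, 8.30, 8.28 and 8.27 on the arrays labelled FMR1-KO 1 to 5, against 8.26, 8.00, 8.09, 8.19 and 8.22 on Control arrays 1 to 5. The groups were apart only by the narrow step from 8.26 on Control array 1 to 8.27 on FMR1-KO array 5. Control arrays 2 and 3, those with Xist signal, were the lowest. Without these 2 arrays only 4 members were higher at an unadjusted p under 0.05 (Zfhx2, Map1a, Scn8a and Macf1), App was lower, and the median difference was 0.065. The share of all genes higher at that p was also smaller there, at 1.63%. The count was 8 without the array labelled FMR1-KO 1, 9 without FMR1-KO 2, and 9 without Control array 2 or without Control array 3. In these fits 1.94%, 1.99%, 2.56% and 2.33% of all genes were higher at that p. The part of sex in the result was not tested beyond these values. Cell type markers differed in mean between the labels as well. All 18 astrocyte markers had a higher mean on the arrays labelled FMR1-KO (median 0.38, 5 at an unadjusted p under 0.05) and all 19 microglia markers a lower one (median -0.55, 6 at that p), none past the adjusted threshold. Of 11 endothelial and mural markers, 7 had a lower mean (median -0.30), 3 lower and 1 higher at that p, and of 13 oligodendrocyte markers 0 reached it.

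**Figure D1:**
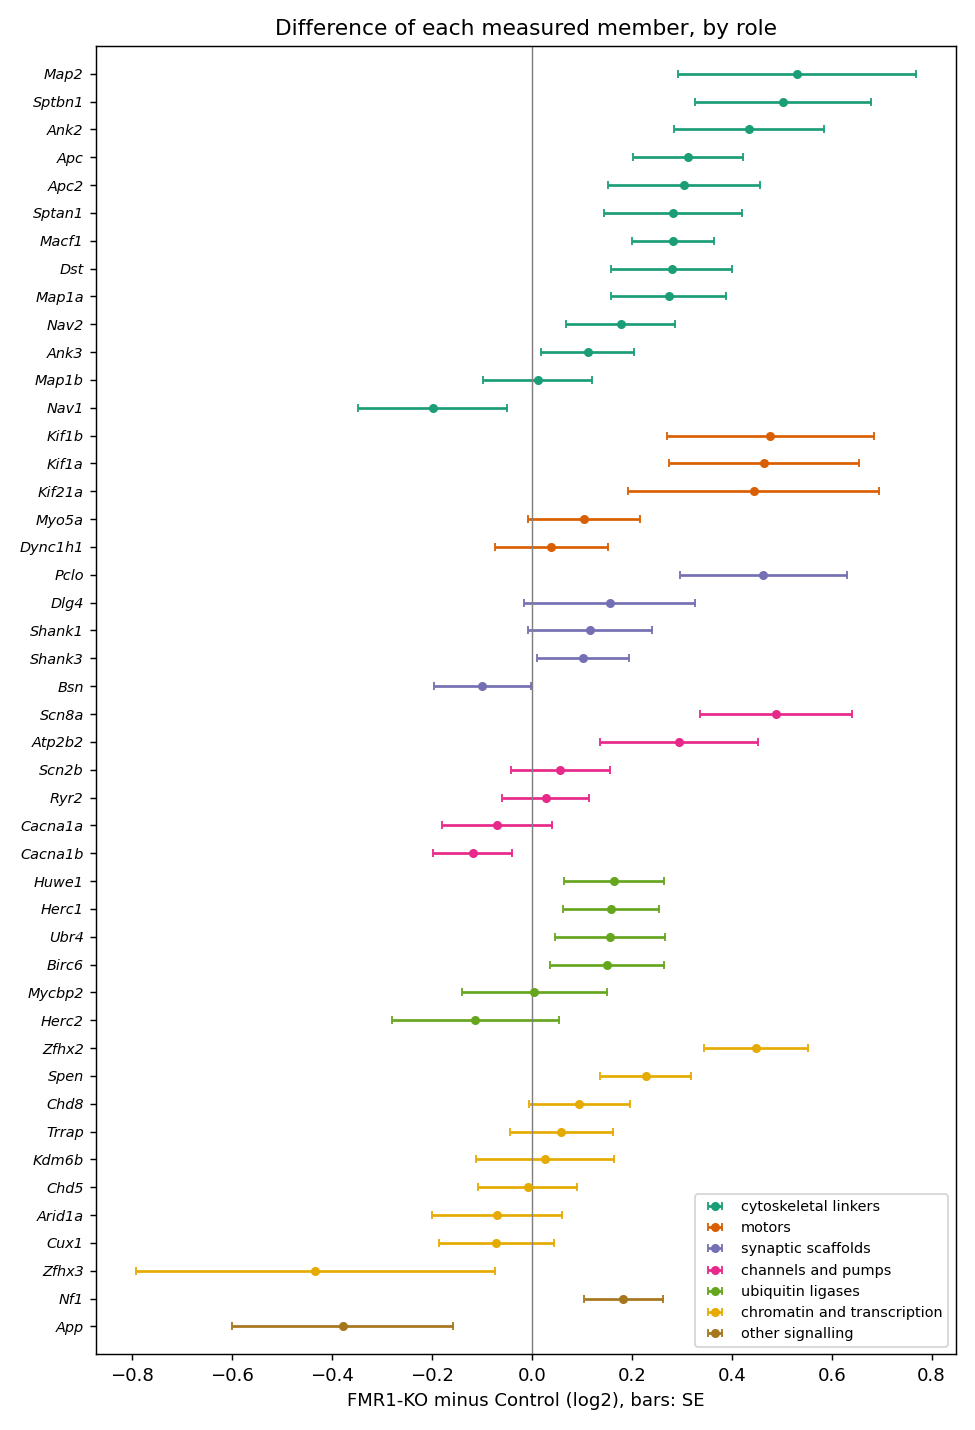
Difference between arrays labelled FMR1-KO and Control arrays for each of the 46 measured members, in log2 units, with bars for the standard error (n = 5 each) and colours for the role of the gene. Most points lie right of 0, from 0.53 for Map2, and the most negative are Zfhx3 at -0.43 and App at -0.38.

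The cytoskeletal linkers, the largest class, made up the largest share of the higher members. Of 13 measured, 12 had a higher mean and 7 were higher at an unadjusted p under 0.05. Their median difference was 0.28, and 0 passed the adjusted threshold. Here and for the roles below, the shares over all genes are 46.8% with a higher mean and 4.0% higher at that p. Macf1 encodes a giant spectraplakin that ties actin to microtubules. It read 11.28, 11.26, 11.25, 11.29 and 11.39 on the arrays labelled FMR1-KO 1 to 5, against 11.19, 10.82, 10.99, 11.02 and 11.04 on Control arrays 1 to 5. Every array labelled FMR1-KO lay above every Control array, and the difference was 0.28 ± 0.082 (SE), or 1.22-fold on the linear scale. Dst, its homolog, read 9.96 to 10.13 on arrays labelled FMR1-KO and 9.35 to 10.06 on Control arrays, with a difference of 0.28 ± 0.12 (SE).

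Ank2 encodes an ankyrin that ties membrane proteins to the spectrin lattice. Its level was 10.29, 10.32, 9.71, 9.75 and 9.73 on the arrays labelled FMR1-KO and 9.84, 9.31, 9.43, 9.59 and 9.44 on Control arrays. FMR1-KO arrays 1 and 2 stood well above the rest and Control array 1 was the highest control, so the groups overlapped (difference 0.44 ± 0.15, SE). Sptbn1, the beta chain of spectrin, read 9.79, 9.69, 9.15, 9.27 and 9.39 against 9.42, 8.64, 8.55, 9.12 and 9.04 in Controls, with Control arrays 2 and 3 the lowest and a difference of 0.50 ± 0.18 (SE). The alpha chain gene Sptan1 differed by 0.28 ± 0.14 (SE).

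Among microtubule-binding genes, Map2, known for stabilising microtubules in dendrites, had the largest difference of any member and also one of the widest spreads. It read 9.97, 9.98, 9.14, 9.11 and 9.04 on the arrays labelled FMR1-KO, against 9.52, 8.86, 8.67, 9.06 and 8.47 on Control arrays. The difference of 0.53 ± 0.24 (SE) came with 3 FMR1-KO arrays inside the control range. Map1a, which binds microtubules along axons and dendrites, read 6.71, 6.73, 6.44, 6.49 and 6.57 against 6.41, 6.56, 6.33, 5.94 and 6.34 in Controls. Control array 4 was the lowest by a wide margin and Control array 2 lay among the FMR1-KO values. The difference was 0.27 ± 0.11 (SE). Its homolog Map1b showed almost none, at 0.012 ± 0.11 (SE).

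Apc and Apc2 bind microtubule ends and also serve in the complex that degrades beta-catenin. Apc read 9.36, 9.43, 8.97, 9.08 and 9.29 on the arrays labelled FMR1-KO and 9.04, 8.72, 8.80, 9.08 and 8.93 on Control arrays. FMR1-KO arrays 1, 2 and 5 lay above all controls, array 4 was level with Control array 4 and array 3 lay inside the control range (difference 0.31 ± 0.11, SE). Apc2 read 8.42, 8.71, 8.09, 8.18 and 8.08 against 8.43, 8.05, 7.91, 7.84 and 7.75 in Controls. Control array 1 matched FMR1-KO array 1, and the difference of 0.30 ± 0.15 (SE) had an unadjusted p above 0.05. Of the other linkers, Nav2 differed by 0.18 ± 0.11, Ank3 by 0.11 ± 0.093 and Nav1, the only linker with a lower mean, by -0.20 ± 0.15 (SE).

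All 5 motor genes had a higher mean, 2 of them at an unadjusted p under 0.05, with a median difference of 0.44. Kif1a, a kinesin that carries synaptic vesicle precursors, read 9.61, 9.83, 9.09, 9.15 and 9.13 on the arrays labelled FMR1-KO, against 9.47, 8.63, 8.59, 8.99 and 8.80 on Control arrays. Kif1b, a homolog that also carries mitochondria, read 10.23, 10.23, 9.47, 9.49 and 9.50 against 9.91, 8.97, 9.25, 9.25 and 9.15 in Controls. In both genes FMR1-KO arrays 1 and 2 and Control array 1 were the 3 high ones. Among the other 7, FMR1-KO arrays 3 to 5 lay above Control arrays 2 to 5. The differences were 0.47 ± 0.19 and 0.48 ± 0.21 (SE). Kif21a, a kinesin that restrains microtubule growth, read 8.29, 8.36, 7.67, 7.46 and 7.27 against 7.95, 7.10, 6.90, 7.72 and 7.17 in Controls, with Control arrays 1 and 4 inside the FMR1-KO range and a difference of 0.44 ± 0.25 (SE). The actin motor Myo5a differed by 0.10 ± 0.11 and the dynein heavy chain gene Dync1h1 by 0.039 ± 0.11 (SE).

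**Figure D2:**
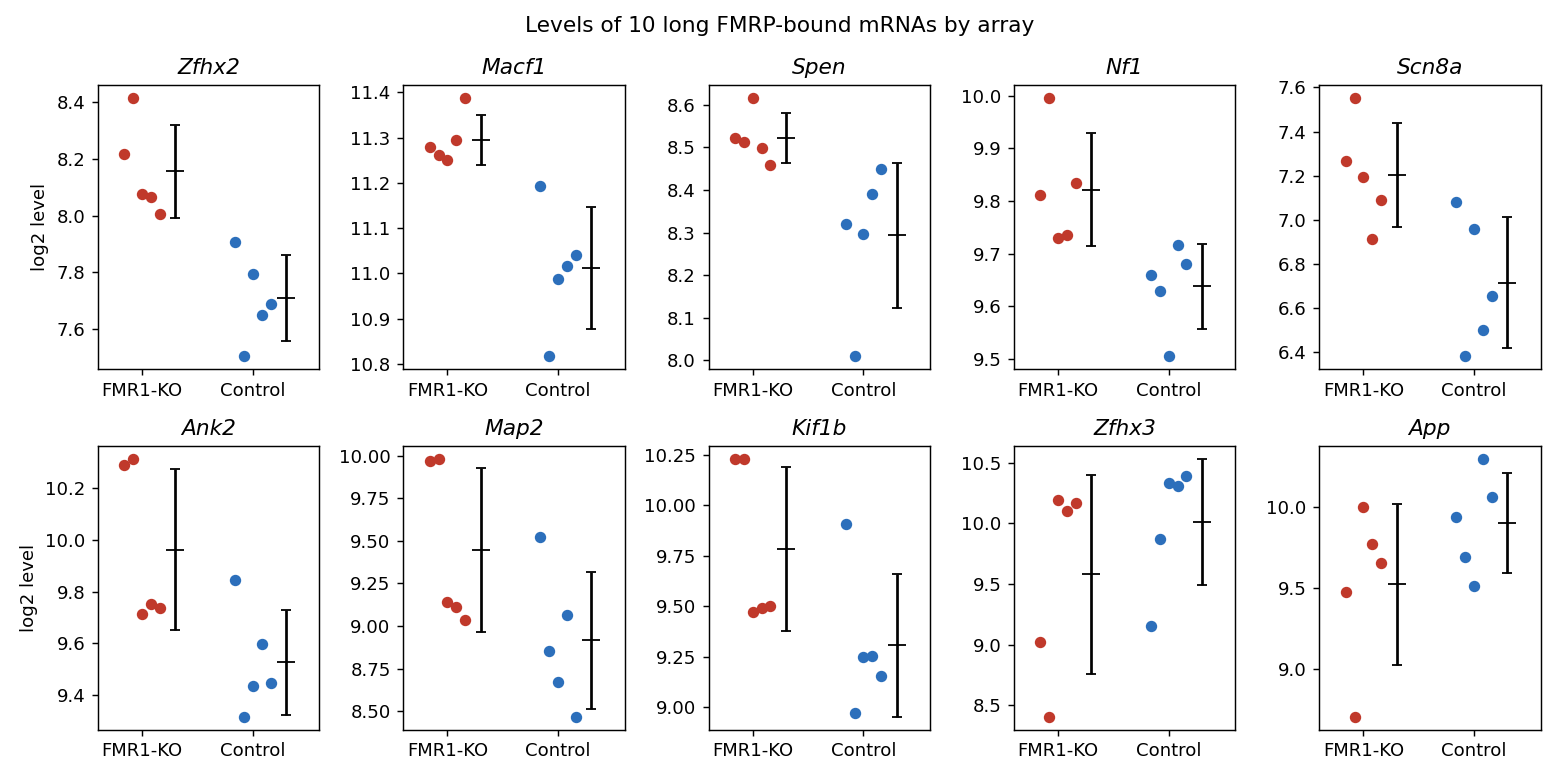
Log2 level of 10 members on each array, arrays labelled FMR1-KO (red, left) and Control (blue, right), points in replicate order, with the mean and SD (n = 5 each) beside them; vertical axes differ and do not start at 0. Groups do not overlap for Zfhx2, Macf1, Spen and Nf1, while Ank2, Map2 and Kif1b show 2 high FMR1-KO arrays and 1 high Control array, and Zfhx3 shows the same 3 arrays low.

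Of 5 synaptic scaffold genes, 4 had a higher mean, 1 of them at an unadjusted p under 0.05. Pclo, which with Bsn builds the presynaptic active zone, read 7.41, 7.33, 6.77, 7.0 and 7.10 on the arrays labelled FMR1-KO, against 7.24, 6.38, 6.64, 6.51 and 6.52 on Control arrays. Control array 1 lay in the FMR1-KO range and the other 4 controls lay below all of it. The difference was 0.46 ± 0.17 (SE). Bsn had the opposite sign, -0.10 ± 0.10 (SE). The postsynaptic scaffolds Dlg4, Shank1 and Shank3 differed by 0.16 ± 0.17, 0.12 ± 0.12 and 0.10 ± 0.092 (SE), with unadjusted p above 0.05 for each. The 13 measured neuron markers had 5 higher means with a median of -0.0069, and 0 were higher and 2 lower at an unadjusted p under 0.05.

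Of 6 channel and pump genes, 4 had a higher mean. Scn8a, a voltage-gated sodium channel of axons that glia also express, read 7.27, 7.55, 7.19, 6.91 and 7.09 on the arrays labelled FMR1-KO, against 7.08, 6.38, 6.96, 6.50 and 6.65 on Control arrays. Control arrays 1 and 3 overlapped the FMR1-KO range, Control arrays 2, 4 and 5 lay below it, and the difference was 0.49 ± 0.15 (SE; 1.40-fold). The calcium-exporting pump Atp2b2 differed by 0.29 ± 0.16 (SE). Cacna1a and Cacna1b, pore subunits of presynaptic calcium channels, had lower means, at -0.07 ± 0.11 and -0.12 ± 0.078 (SE). The calcium release channel Ryr2 differed by 0.028 ± 0.087 and the sodium channel beta subunit Scn2b by 0.057 ± 0.10 (SE). Scn2b averaged at the cutoff for dim probe sets, so its value shows little. Ryr2, Shank1, Ank3, Shank3 and Cacna1b averaged 5.73, 5.78, 5.79, 6.01 and 6.01 over all arrays. These lie under the 50th percentile of all probe sets, 6.17, about as dim as the neuron markers, so their values need the same care.

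Of 6 giant ubiquitin ligase genes, 5 had a higher mean, 0 at an unadjusted p under 0.05, with a median of 0.15. Huwe1, Herc1, Ubr4 and Birc6 differed by 0.16 ± 0.10, 0.16 ± 0.10, 0.16 ± 0.11 and 0.15 ± 0.11 (SE). Ubr4 read 9.12 to 9.27 on arrays labelled FMR1-KO and 8.63 to 9.24 on Control arrays, where Control array 2 was the low value. Mycbp2, which restrains axon and synapse growth, differed by 0.0053 ± 0.15 (SE). Herc2, a ligase of the DNA damage response, read 8.77, 8.48, 9.24, 9.17 and 9.07 on the arrays labelled FMR1-KO, against 8.94, 8.63, 9.14, 9.25 and 9.33 on Control arrays. Control array 2 and FMR1-KO arrays 1 and 2 were the lowest 3, and the difference was -0.11 ± 0.17 (SE).

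Chromatin and transcription genes were split. The mean was higher for 5 of 9 and lower for 4, and 2 were higher at an unadjusted p under 0.05. Zfhx2, a zinc-finger homeobox factor, read 8.22, 8.42, 8.08, 8.06 and 8.01 on the arrays labelled FMR1-KO, against 7.91, 7.5, 7.79, 7.65 and 7.69 on Control arrays. The lowest FMR1-KO array lay above the highest Control array, and the difference of 0.45 ± 0.10 (SE), or 1.36-fold, had the smallest p of all members. A second probe set annotated to Zfhx2 together with its antisense gene was not used. Spen, a corepressor that Xist RNA recruits to silence the X chromosome, read 8.52, 8.51, 8.62, 8.50 and 8.46 against 8.32, 8.01, 8.30, 8.39 and 8.45 in Controls. Here too the groups did not overlap, although Control array 5 was only just below, and the difference was 0.23 ± 0.091 (SE).

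Zfhx3, the homolog of Zfhx2, ran the other way. It read 9.02, 8.41, 10.19, 10.10 and 10.17 on the arrays labelled FMR1-KO, against 9.16, 9.87, 10.34, 10.31 and 10.39 on Control arrays. FMR1-KO arrays 1 and 2 and Control array 1 were low and the other 7 were high, so the difference of -0.43 ± 0.36 (SE) sat inside a wide spread. Arid1a, a subunit of the SWI/SNF chromatin remodeller, read 9.68, 9.57, 10.04, 10.02 and 10.01 against 9.58, 9.88, 10.03, 10.00 and 10.17 in Controls. The same 3 arrays were the lowest, and the difference was -0.07 ± 0.13 (SE). The remodellers Chd8 and Chd5 differed by 0.095 ± 0.10 and -0.0086 ± 0.10, the homeobox factor Cux1 by -0.071 ± 0.12, the acetyltransferase scaffold Trrap by 0.059 ± 0.10 and the histone demethylase Kdm6b by 0.026 ± 0.14 (SE).

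Outside these classes, Nf1, which encodes the Ras-inactivating protein neurofibromin, read 9.73 to 10.00 on arrays labelled FMR1-KO and 9.51 to 9.72 on Control arrays, with no overlap and a difference of 0.18 ± 0.08 (SE). App, the amyloid precursor protein gene, had a lower mean: it read 8.71 to 10.00 on arrays labelled FMR1-KO and 9.51 to 10.30 on Control arrays, with FMR1-KO array 2 the lowest and a difference of -0.38 ± 0.22 (SE). In all, the groups did not overlap for 4 members, each of them higher on the arrays labelled FMR1-KO (Zfhx2, Macf1, Spen and Nf1), where 0.429% of all genes had no overlap in that direction and 0.536% in the other.

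A second list of reported FMRP-bound mRNAs that shares no gene with the 48 was read beside them. It holds 53 genes, of which 44 were measured. The mean was higher for 33 of these and lower for 11, where 46.8% of all genes had a higher one. The median difference was 0.10. An unadjusted p under 0.05 was reached by 6 higher and 2 lower ones, against 4.0% and 3.53% of all genes. None (0) passed the adjusted threshold. The 4 with the smallest p were the phosphodiesterase gene Pde2a at -0.52 ± 0.17, the initiation factor Eif4g3 at 0.27 ± 0.09, the cadherin Celsr2 at 0.48 ± 0.16 and the glutamate transporter Slc1a2 at 0.47 ± 0.18 (SE). Slc1a2 is an astrocyte marker as well, and it is not the only gene of this list among the astrocyte markers. Whether the 2 lists differ was not tested.

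The members were next set against the microglial signal. Cx3cr1, a chemokine receptor gene that marks microglia in the brain, read 10.64, 10.10, 11.53, 11.46 and 11.44 on the arrays labelled FMR1-KO 1 to 5, against 10.95, 11.51, 11.87, 11.70 and 11.65 on Control arrays 1 to 5. FMR1-KO arrays 1 and 2 and Control array 1 were low, between 10.10 and 10.95, and the other 7 lay between 11.44 and 11.87. It averaged 11.03 ± 0.64 under the FMR1-KO label and 11.54 ± 0.35 under the Control label (SD, n = 5 each), a difference of -0.50 ± 0.27 (SE; limma adjusted p = 0.671). Because the arrays fall into these clusters, no correlation is given, and each gene's slope on Cx3cr1 was fitted with the label in the model.

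In that fit 13 of 46 members followed Cx3cr1 (limma, adjusted p under 0.05), 9 falling and 4 rising as Cx3cr1 rose, against 18% of all genes, 10.6% falling and 7.36% rising. The members that fell with rising Cx3cr1 were linkers, motors, 1 scaffold and 1 pump. Map2 had a slope of -0.77 ± 0.13 (SE) log2 units per log2 unit of Cx3cr1 (adjusted p = 8.93e-04), and it was lower on each of the 7 arrays with high Cx3cr1 than on the other 3. Slopes of the motors were -0.76 ± 0.16 for Kif21a, -0.65 ± 0.12 for Kif1b and -0.61 ± 0.11 for Kif1a (SE). Apc2, Ank2, Sptbn1, Atp2b2 and Pclo had slopes of -0.48 ± 0.094, -0.46 ± 0.10, -0.46 ± 0.14, -0.43 ± 0.12 and -0.43 ± 0.13 (SE). All 18 astrocyte markers also had negative slopes, 17 of them past the adjusted threshold, and none of the 13 neuron markers passed in either direction. Of the 44 measured genes of the second FMRP list, 14 fell and 2 rose past that threshold.

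**Figure D3:**
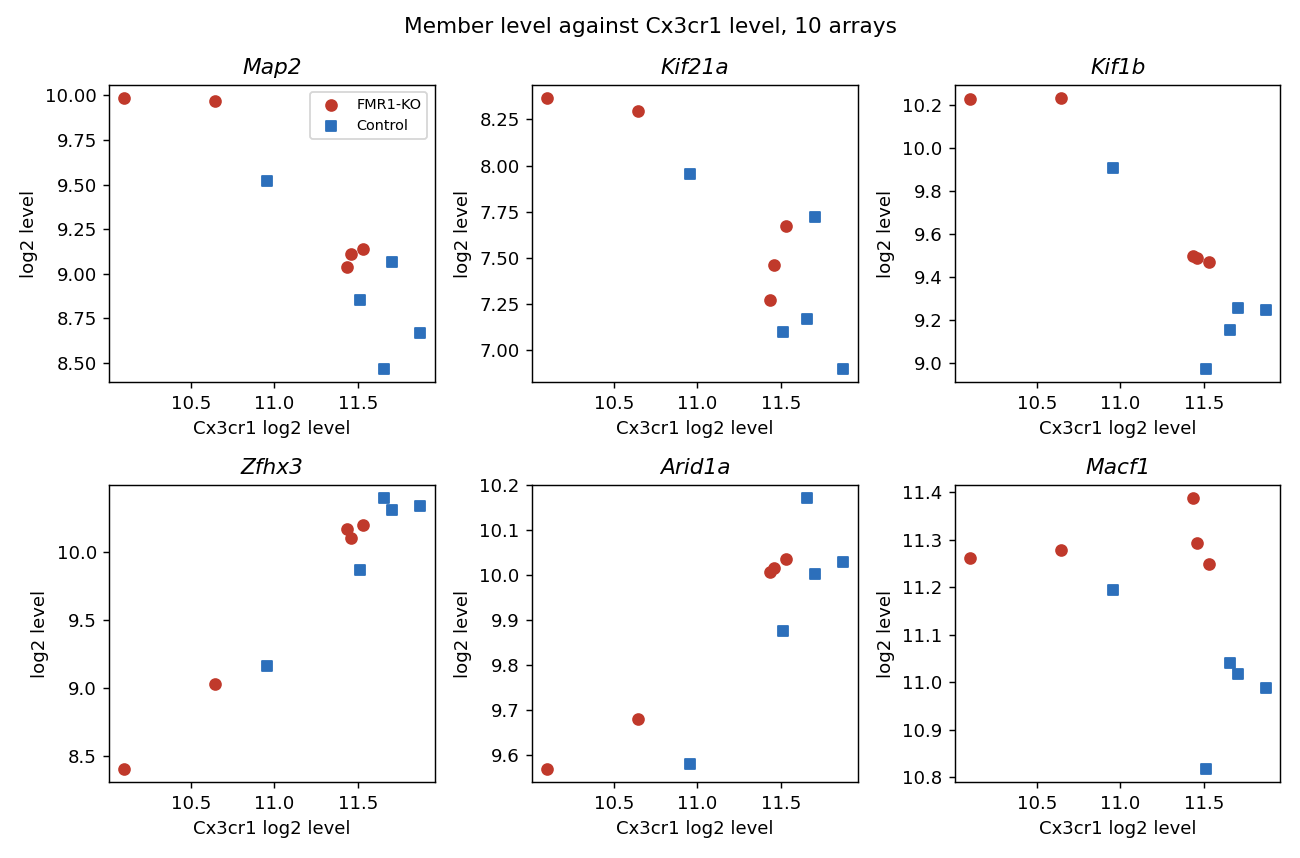
Log2 level of 6 members against the log2 level of Cx3cr1 on the 10 arrays, labelled FMR1-KO (red circles) and Control (blue squares); axes do not start at 0. Map2, Kif21a and Kif1b are highest on the 3 arrays with Cx3cr1 between 10.10 and 10.95, Zfhx3 and Arid1a are lowest there, and Macf1 separates by label at either level.

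The 4 members that rose with Cx3cr1 (8.7%, close to the 7.36% of all genes) were 2 chromatin and transcription genes, 1 ubiquitin ligase and 1 linker. Zfhx3 had the steepest slope of any member, 1.32 ± 0.10 (SE; adjusted p = 2.79e-06), steeper than the median of 0.98 over the 18 other microglia markers measured. Herc2, Arid1a and Nav1 followed with 0.46 ± 0.12, 0.39 ± 0.09 and 0.39 ± 0.12 (SE). By role, 9 of 13 linkers, 4 of 5 motors and 4 of 5 scaffolds had negative slopes, while 7 of 9 chromatin genes and 6 of 6 ubiquitin ligases had positive ones. The 6 ligase slopes had a median of 0.041, and 2 of them an unadjusted p under 0.05 in limma. Over all 46 the signs split evenly, 23 and 23, and over all genes 8553 of 17711 slopes were positive. Macf1 at -0.025 ± 0.094, Spen at 0.022 ± 0.10, Huwe1 at 0.046 ± 0.11 and Birc6 at 0.019 ± 0.12 (SE) showed slopes smaller than their errors. The calls rest on the 3 arrays with low Cx3cr1: without them 0 members passed, and the slopes of Ank2, Pclo, Kif1b and Nav1 changed sign. The label difference without those 3 arrays had 12 members higher at an unadjusted p under 0.05, 9 of them among the 14, where 3.34% of all genes were, with a median of 0.14.

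The array level, meaning the mean log2 level of all tested genes that are not members, was the second measure. It ran only from 6.93 to 7.01, with the array labelled FMR1-KO 5 the lowest. No member followed it (0 of 46 at an adjusted p under 0.05, as for 0% of all genes). The slopes themselves had a median of 0.996 over members, with 31 positive and 15 negative. Over all genes the median was 0.833, with 10486 of 17712 positive. Array level is made from the non-member genes, so a positive lean over all genes is partly built in. At an unadjusted p under 0.05, 0 members had a positive and 1 a negative slope, against 11.1% and 3.86% of all genes (14.9% in either direction). That 1 was Ryr2, a dim gene with a mean level of 5.73. The narrow range of array level limits the precision of these slopes.

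With both measures in 1 model, slopes of members passed the adjusted threshold for Cx3cr1 only. The Cx3cr1 slope passed for 15 members, 9 negative and 6 positive, against 19.2% of all genes, 10.2% negative and 9.0% positive. Cux1 and Mycbp2 joined the positive side, with slopes of 0.31 ± 0.094 and 0.39 ± 0.12 (SE). The array level slope passed for 0 members and 0.0790% of all genes, so no member passed for both. With so few genes passing, that count cannot tell whether members follow array level.

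With these measures in the model, the difference fitted for the label changed for single genes and by role, while the median over the list changed little. Cx3cr1 averaged lower under the FMR1-KO label, so the fit cannot fully part the label from Cx3cr1. With both in the model, 39 of 46 members had a higher adjusted mean and 7 a lower one, against 50.2% of all genes higher, and the median was 0.16 against 0.00071 over all genes. An unadjusted p under 0.05 was reached by 8 higher and 0 lower members, where 2.59% and 3.22% of all genes did. After adjustment 0 passed. Of the 8, 6 had been among the 14 without covariates. Over the second FMRP list the median was 0.078 in this fit, against 0.10 from the label alone. By role, the median went from 0.44 to 0.16 for motors, 0.28 to 0.18 for linkers and 0.12 to 0.028 for scaffolds. It went from 0.043 to 0.015 for channels and pumps, 0.15 to 0.21 for ubiquitin ligases and 0.026 to 0.18 for chromatin and transcription genes. Map2 was then at 0.16 ± 0.14, Kif1b at 0.16 ± 0.13 and Kif1a at 0.17 ± 0.12 (SE), well below their differences from the label alone.

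Zfhx2 differed by 0.34 ± 0.10, Macf1 by 0.25 ± 0.10, Scn8a by 0.32 ± 0.15 and Spen by 0.27 ± 0.10 (SE) with both measures in the model. Dst had 0.38 ± 0.13, against 0.28 from the label alone. Chd8 had 0.22 ± 0.10, against 0.095, and Ank2 0.22 ± 0.10, against 0.44 (SE). Zfhx3 turned from a lower to a higher mean, at 0.24 ± 0.10 (SE), while App came to -0.078 ± 0.19 (SE). With Cx3cr1 alone in the model 6 members were higher at an unadjusted p under 0.05 (1.85% of all genes), and with array level alone 15 were (5.60%). When Control arrays 2 and 3 were also left out of the model with both measures, 4 members were higher (Zfhx2, Dst, Scn8a and Map1a), where 2.42% of all genes were, with a median of 0.075.

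**Figure D4:**
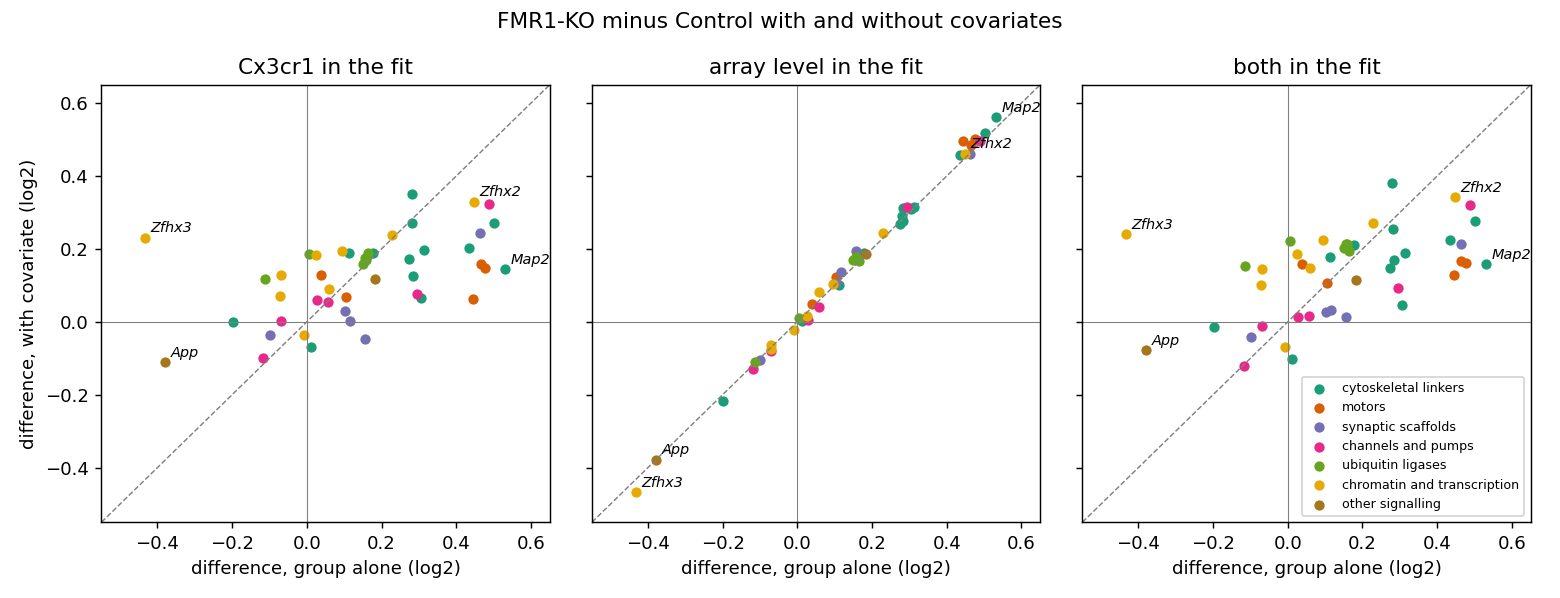
Difference between arrays labelled FMR1-KO and Control arrays in log2 units for the 46 members, from the label alone (horizontal) and with Cx3cr1, array level or both in the model (vertical); the dashed line marks equal values. Array level leaves the points near the line, while Cx3cr1 draws Map2 toward 0, lifts Zfhx3 from below to above 0 and leaves Zfhx2 at 0.34 with both in the model.

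Homologous members were also compared with each other inside each array. For 12 pairs the log2 ratio of the 2 genes was taken per array and the labels were compared by an exact two-sided permutation test over 252 assignments, whose smallest possible p is 0.00794. No pair passed after adjustment over the 12. The ratio of Zfhx2 to Zfhx3 differed most, by 0.88 (exact p = 0.143, adjusted p = 0.343). Bsn to Pclo differed by -0.56 and Map1a to Map1b by 0.26 (exact p = 0.0794 and adjusted p = 0.343 for each). At the other end, Macf1 to Dst differed by 0.0023, Apc to Apc2 by 0.0077, Shank1 to Shank3 by 0.014 and Kif1a to Kif1b by -0.012, each within the spread of the ratio between arrays. The Kif1a to Kif1b ratio had an SD of 0.11 on the arrays labelled FMR1-KO and 0.15 on Control arrays (n = 5 each).

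These genes are long in the genome too. The annotated span in RefSeq GRCm38.p6, introns included, had a median of 144 kb over the members and 19.1 kb over the 17580 tested genes with a span. It ran from 12.2 kb for Scn2b, the one member below the median of all genes, to 682 kb for Zfhx3, and 37 members fell in the 2 longest deciles. Across all genes the difference between the labels was larger in the longest genes. Its median was -0.02 in the shortest decile, -0.013 in the fifth, 0.0099 in the ninth and 0.04 in the longest. In the longest decile 11.3% of genes were higher at an unadjusted p under 0.05 and 0.967% lower, against 2.73% and 4.26% in the shortest.

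The 26 members in that longest decile had a median difference of 0.16, and 9 of them were higher at an unadjusted p under 0.05. The 11 members of the ninth decile had a median of 0.10, with 3 higher at that p, where 5.18% of all genes in that decile were. Slopes on Cx3cr1 past the adjusted threshold were more frequent among long genes in both directions. Negative ones were 20.4% of the longest decile and 4.66% of the shortest, and positive ones 10.3% and 3.75%. The separate parts of span and Cx3cr1 in the difference were not tested.

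**Figure D5:**
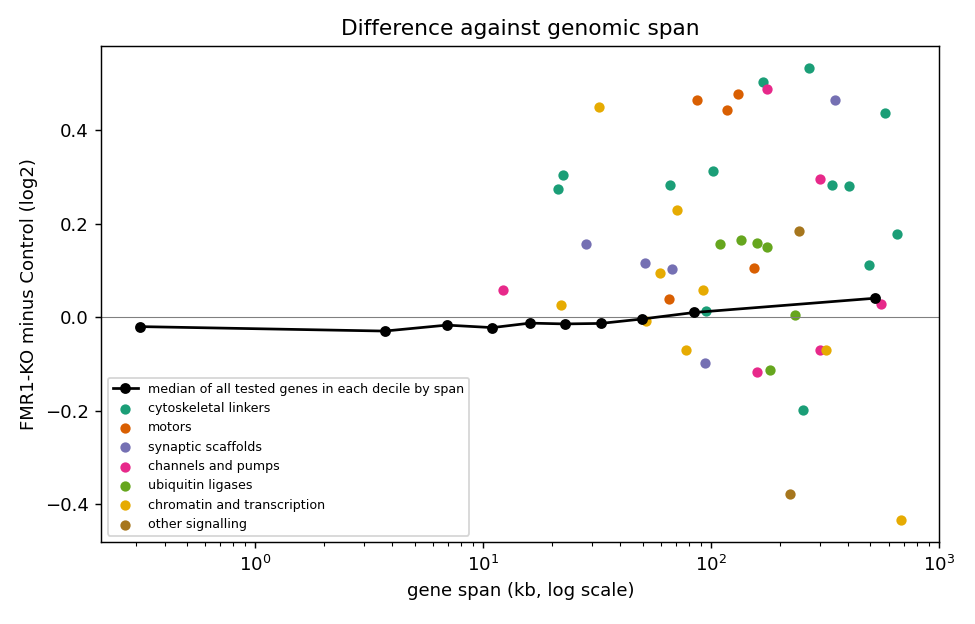
Difference between arrays labelled FMR1-KO and Control arrays in log2 units against the genomic span of each gene in kb on a log scale; coloured points are the 46 members by role and the black line joins the medians of all tested genes in 10 equal parts by span, each drawn at the geometric centre of its range. The line lies between -0.03 and 0.04, and the members spread from -0.43 to 0.53 around and above it.

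For 8 members a second probe set names the gene alone. Its difference had the same sign as that of the brighter one for Bsn (-0.094) and Chd8 (0.19). The sign was opposite for Shank3 (-0.13), Nav1 (0.12), Cux1, Chd5, Birc6 and Kdm6b. None of the 14 members counted as higher is among the 8.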

How the data were processed

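The authors deposited 1 value per probe set and array on a log2 scale, as the values themselves show: they ran from 4.31 to 13.9 with medians per array of 6.11 to 6.24. Cells were sorted on an EGFP reporter and their RNA was amplified and biotin-labelled with Affymetrix whole-transcript kits, per the labels' protocols. How the signals were normalized and summarised is not given in the sources used here. Of 33793 probe sets, 23521 are annotated with 1 gene symbol and were used.

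The brightest probe set, averaged over the 10 arrays, stood for its gene, and genes averaging under the 25th percentile of probe sets were dropped. Differences (FMR1-KO minus Control) and slopes came from two-sided tests in limma 3.58.1 (lmFit, then eBayes; R 4.3.3), with p-values adjusted by Benjamini-Hochberg over all genes at a threshold of 0.05. Slopes on Cx3cr1 and on the mean level of non-member genes were fitted with the label in the model. The fits were tested on simulated data with noise drawn independently for each gene and array. That check does not cover signal that many genes share across arrays. Correlations between arrays over genes ran from 0.903 to 0.990, so no array repeated another. The members, lists and alternatives were chosen with earlier results of these data known. Named are all members, Fmr1, Cx3cr1, and the 4 smallest p of the second FMRP list. Xist falls outside that rule and was named with its values known. Values on every array are given for the 10 members with the smallest p of the label difference and the 10 with the smallest p of a slope in the model with both measures. Lists for oligodendrocytes (median difference 0.014, 13 measured) and for endothelial and mural cells (-0.30, 11 measured, 3 lower and 1 higher at an unadjusted p under 0.05) had 0 genes past the adjusted threshold. Replicate numbers are shared between labels, but deviations of same-numbered arrays correlated from -0.015 to 0.53, not above 0.1 in every pair, so arrays were not paired. Promoter windows are RefSeq sequence of GRCm38.p6. The deciles by span, the promoter windows and motifs, and the 3 promoters shown were chosen after the data had been seen and have no test. 1 alternative was added then as well. Under the alternatives a single member's difference was judged as a value against the replicate spread, since none passed the adjusted test.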

Additional observations from a re-analysis of the deposited data

Results flagged for a closer look

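In 98 groups of 5 values (46 members, the members' mean, Cx3cr1 and the array level, each under 2 labels), 4 held 1 value whose gap to its neighbour exceeded 0.71 of the group's range, where chance gives about 1 in 20 groups. Nav2 read 9.0 on the array labelled FMR1-KO 4 and 9.24 to 9.28 on the other 4. Shank1, a dim gene, read 5.54 on the array labelled FMR1-KO 5 and 5.87 to 5.95 on the others. The array level was 6.93 on that same array and 6.99 to 7.01 on the others. Ubr4 read 8.63 on Control array 2, where its other controls read 9.07 to 9.24.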

How the results depend on the processing

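The count of 14 members higher at an unadjusted p under 0.05 was 8 to 16 with each array left out in turn, 4 without Control arrays 2 and 3, 6 with Cx3cr1 and also 6 with the mean of the microglia list as a covariate, 8 with Cx3cr1 and array level, 4 with both and without Control arrays 2 and 3 (added after the data were seen), and 3 at a p under 0.01. It was 10 to 16 under quantile normalization, equal medians, other filters, the mean of probe sets, trend and robust settings, array weights and a replicate block. Of all 17712 genes, 343 to 1170 were higher with each array left out, and 90 at a p under 0.01. With the microglia list mean 312 of 17693 were. Under quantile normalization, equal medians, trend and robust settings and array weights, 929, 705, 687 and 696 of 17712 were. Without a filter 744 of 22180 were, with a stricter filter 574 of 12330, and with the mean of probe sets 703 of 17679. Shares for the other fits are given above or below. The median of 0.15 was 0.091 to 0.17 with each array left out, 0.065 without Control arrays 2 and 3, and 0.075 when both covariates were added to that. Over all genes, 0 passed the adjusted threshold, or 0 to 1 with each array left out and 1 without the 3 arrays of low Cx3cr1. The 13 members following Cx3cr1 were 9 to 17 with each array left out, 20 with array weights, 2 with the replicate number as a block and 0 without the 3 arrays of low Cx3cr1. Of all 17711 genes, 1838 to 3598, 4207, 483 and 0 followed it in these fits. In the model with both measures the 15 became 10 to 18, 4 with the replicate block and 0 without those 3 arrays. There 2277 to 3966 of all genes followed Cx3cr1 with each array left out, 748 with the block and 0 without those 3 arrays. Without them the Cx3cr1 slopes of Ank2, Pclo, Kif1b and Nav1 were 0.31, 0.42, 0.70 and -0.053, and in the model with both 0.26, 0.64, 0.71 and -0.16, with Cux1 at -0.32; the block turned Mycbp2 to -0.037. No member followed array level under any alternative except that 6 did in the model with both after a shift to equal medians. In that fit 2175 of all 17711 genes did. After quantile normalization array level hardly varied, so its slope has no useful scale there. The causes were not tested. The replicate numbers did not pair the arrays: same-numbered deviations correlated above 0.1 in 3 of 5 pairs, and only the array labelled FMR1-KO 1 correlated best with its own number. Under the replicate block 16 members were higher and 1 lower at an unadjusted p under 0.05, where 1006 and 1074 of 17712 genes were. The number of arrays limits the precision.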
